A study of Caenorhabditis elegans with 6 samples.

Results

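Most col- genes of Caenorhabditis elegans encode collagens of the cuticle, the layered outer covering that the epidermis makes anew before each molt. A cuticle collagen is a short chain with stretches of the Gly-X-Y repeat that wind into a triple helix, and the chains are trimmed, crosslinked and secreted toward the outer face of the epidermis. Their mRNAs appear in pulses within each larval stage, and some members belong to 1 stage, such as col-2 of the dauer larva and col-7 and col-19 of the adult. NRDE-3 is a nuclear Argonaute protein that carries secondary siRNAs, which lie antisense to their target transcripts. Members were all protein-coding genes whose WormBase identifier in the files stands for a symbol of col- followed by a number. There were 156 among 20524 protein-coding genes and 45510 genes in all, and each was taken by its symbol and not by its counts. The choice of this group was made with earlier results of these data known.

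The study compared small RNAs in 6 libraries of L3 larvae, 1 per group, made from whole animals. The 3 genotypes were a susi-2(ust49) mutant, a susi-3(ust51) mutant and a control, called susi-2, susi-3 and control here. All 3 carried eri-1(mg366), a mutation that depletes a class of endogenous siRNAs, and the GFP::NRDE-3 fusion, so the control shares both. Each genotype gave a library of RNA recovered with NRDE-3 by immunoprecipitation (IP), through the FLAG tag, and a library of total small RNA. The labels put all 6 groups at 15 °C on OP50 bacteria, and their growth protocol names 20 °C for maintenance before the experiment. RNA of 17 to 30 nt was taken, so a sense count is a short fragment of a collagen mRNA and not the mRNA level. No IP from worms without the tagged protein was analysed here, so that RNA carried over without NRDE-3 cannot be told apart from RNA bound to it.

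Libraries held 9122066 to 10755494 counts, and 1 count was 0.0930 to 0.110 counts per 1000000 counts of the library (CPM). Each group is 1 library, so differences between genotypes could not be checked against replicates, and none was tested. The 95% intervals cover the error of counting alone, and PCR copies of a molecule may be counted more than once. Whole larvae were used, so fewer cells of a type and less RNA per cell cannot be told apart. The lengths of the genes were not given, and levels are therefore compared between libraries and not between genes.

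Sense fragments of the collagens made up more of both mutant total libraries, and less of both mutant IP libraries, than of the matching control. In the IPs the sense sum over the 156 genes was 3616 CPM in susi-2, 4378 CPM in susi-3 and 5543 CPM in the control. In total small RNA it was 2260 CPM in susi-2, 2449 CPM in susi-3 and 902 CPM in the control. The total libraries thus held 2.51 times (2.45 to 2.57) the control share in susi-2 and 2.72 times (2.65 to 2.78) in susi-3. The IP ratios were 0.652 (0.644 to 0.661) in susi-2 and 0.790 (0.780 to 0.800) in susi-3. For all other protein-coding genes the total ratios were 1.51 and 1.23 in susi-2 and susi-3, and the IP ratios 0.794 and 0.933. The lower IP sums do not describe the typical collagen. In the susi-2 IP the median log2 ratio was −0.36 for the collagens compared and −0.50 for all genes. The susi-3 IP difference nearly vanished under another scaling given below.

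Antisense counts on the collagens did not follow the sense counts, except in the susi-3 IP, where both sums were below the control. Their sum was 231.6, 89.8 and 156.7 CPM in the susi-2, susi-3 and control IPs. The total libraries had 176.1 CPM in susi-2, 238.6 CPM in susi-3 and 374.2 CPM in the control. Both mutant total libraries were below the control, at 0.471 (0.445 to 0.497) and 0.637 (0.605 to 0.671) of its share for susi-2 and susi-3. Among IPs the susi-3 library was below the control, at 0.573 (0.527 to 0.623), and the susi-2 library above it at 1.48 (1.39 to 1.58). For all other protein-coding genes the total ratios were 0.505 and 0.676 and the IP ratios 1.74 and 0.970 in susi-2 and susi-3. The total ratios of the collagens were thus near the general shift, and both IP ratios were below it. The IP ratios leaned on 1 gene, col-84, which held 21.6% of the collagen antisense counts in the control IP. It held 0.757% and 0.468% in the susi-2 and susi-3 IPs. IP ratios without col-84 are not given here, so a shortfall of the collagens in general cannot be read from these sums. The susi-2 IP sum turned round, to 0.713, when the library was scaled by the bulk of its antisense genes with trimmed mean of M-values (TMM) factors in place of its total.

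**Figure D1:**
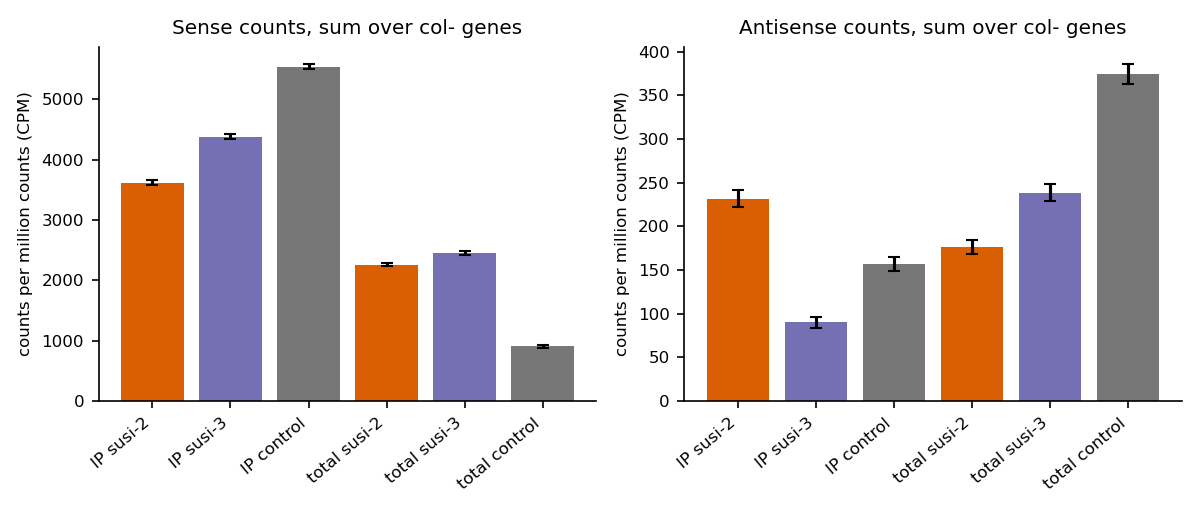
Summed CPM over the 156 col- genes in each of the 6 libraries, sense at left and antisense at right. Each bar is 1 library with its 95% Clopper-Pearson interval, and sense counts stand at 2260 and 2449 CPM in the mutant total libraries against 902 CPM in the control.

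The collagens carried little antisense RNA relative to their sense fragments. Antisense counts were 6.02%, 2.01% and 2.75% of their counts in the susi-2, susi-3 and control IPs, against 26.8%, 14.8% and 14.3% for other protein-coding genes. In total small RNA they were 7.23% in susi-2, 8.88% in susi-3 and 29.3% in the control, against 28.45%, 39.3% and 54.2% for other protein-coding genes. Every member had a sense count in each IP. An antisense count was found for 155, 141 and 145 members in the susi-2, susi-3 and control IPs and for 77, 75 and 78 in the total libraries. Antisense counts in total small RNA were held by few genes, since the 5 leading members made up 75.2%, 85.6% and 83.1% of them in susi-2, susi-3 and the control. In the IPs the 5 leading members held 28.6%, 24.1% and 49.3%.

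The comparison of total small RNA asked which collagens changed their fragment counts in each mutant. A gene was compared when it had at least 50 counts on that strand over the 2 libraries, and was counted as changed from a 2-fold ratio of CPM with 1 CPM added to each. Of 62 collagens with enough sense counts in the susi-2 and control total libraries, 40 were at least 2-fold higher in susi-2, where 15.7% of all genes were. Another 2, col-38 and col-71, were at least 2-fold lower, where 8.59% of all genes were. The median log2 ratio was 1.20 for the collagens and 0.44 for all genes. Of 66 collagens compared in susi-3, 37 were at least 2-fold higher and 0 lower, where 10.3% and 8.02% of all genes were, and the medians were 1.14 and 0.23. TMM put the log2 zero of all sense genes at 0.41 in susi-2 and 0.21 in susi-3. Relative to that zero, 23 of the 62 collagens were at least 2-fold higher and 2 lower in susi-2, against 6.51% and 12.8% of all genes, and 32 of 66 were higher and 0 lower in susi-3, against 6.56% and 10.4%. The sums were then 1.88 and 2.34 times the control in susi-2 and susi-3.

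Members with the most sense counts over the 6 libraries are given first. The susi-2, susi-3 and control total libraries held 1342, 1757 and 454 sense counts on col-3, and 1316, 1397 and 453 on col-117, its neighbour on the chromosome. Both were higher in both mutants, at 2.97 and 4.13 times the control for col-3 and 2.92 and 3.29 times for col-117. Their IP counts were 1739, 1064 and 1620 for col-3 and 1707, 1038 and 1565 for col-117 in susi-2, susi-3 and the control. Here susi-2 was above the control and susi-3 below it for both genes. col-10 and col-144 were also higher in both mutants, with 1216, 1654 and 463 total counts for col-10 and 1432, 1615 and 516 for col-144 in the same order. How reads with several matches were assigned is not given. The pairs col-10 and col-144, col-92 and col-94, and col-154 and col-155 differed by at most 20% in sense counts in every library, and for them shared reads cannot be told apart from separate transcripts.

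The mutants did not lead with the same genes. In susi-2 the highest ratios were on col-58, col-41 and col-90. col-58 had 58 sense counts in the susi-2 total library, 19 in susi-3 and 6 in the control. col-90 had 1189, 406 and 291, and col-41 had 521, 180 and 126 in susi-2, susi-3 and the control. The susi-2 library was the high one for all 3, at 4.10 times (3.61 to 4.68) the control for col-90 and 4.15 times (3.41 to 5.08) for col-41. In susi-3 the highest were col-142, with 61, 154 and 24 counts, col-42, with 284, 542 and 102, and col-176, with 211, 524 and 107 in susi-2, susi-3 and the control. Here susi-3 was the high library, at 6.85 times the control for col-142, 5.68 times (4.59 to 7.08) for col-42 and 5.23 times for col-176. The difference between the mutants was not tested.

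The lowest ratios in susi-3 were on col-76, with 27 counts against 47 in the control, col-111, with 23 against 31, and col-186, with 41 against 46. Their intervals all included 1. In susi-2 the lowest were col-38, at 0.198 with 13 counts against 66, and col-71, at 0.270 (0.138 to 0.495) with 14 against 52. col-186, the third lowest in susi-2, had 42 counts against 46. col-38 and col-71 were also among the members with the lowest ratios in the susi-2 IP.

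**Figure D2:**
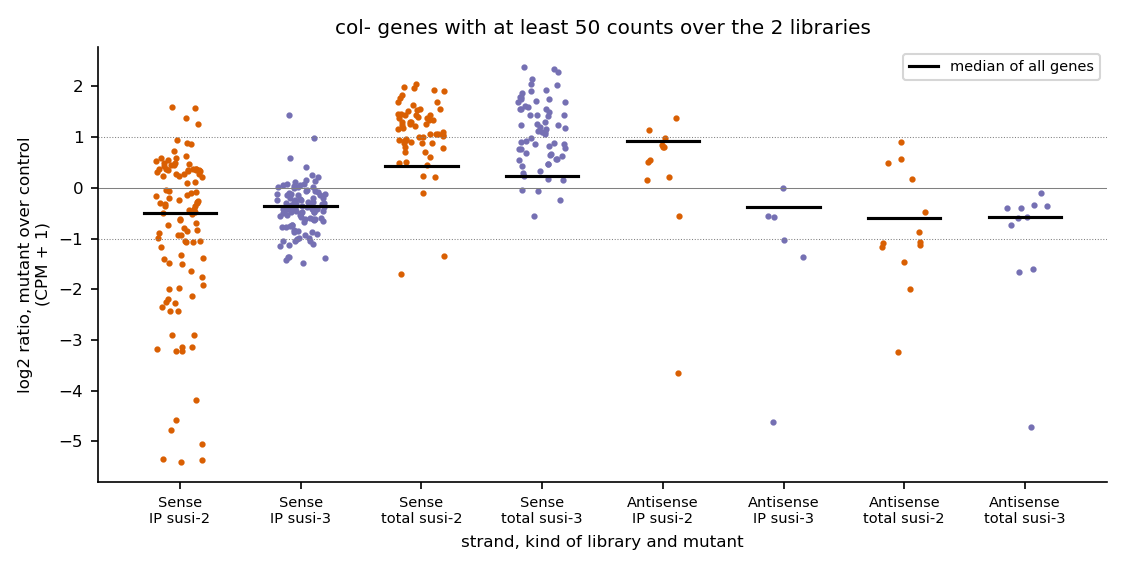
Log2 ratio of each mutant to the control for every col- gene with at least 50 counts over the 2 libraries, by strand, kind of library and mutant. Points are genes, black lines the median of all genes compared (0.44 for susi-2 and 0.23 for susi-3 in sense counts of total small RNA) and dotted lines 2-fold, and most collagens lie above the black line for sense counts in both total comparisons.

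In the susi-2 IP a set of collagens had very few sense fragments. Of 106 collagens compared between the susi-2 and control IPs, 36 were at least 2-fold lower and 4 higher in susi-2, where 16.9% and 4.54% of all genes were. The medians of the log2 ratio, −0.36 for the collagens and −0.50 for all genes, did not show this. TMM put zero at −0.31, and relative to it 31 were lower and 8 higher, against 8.05% and 6.55% of all genes. Without TMM scaling, 22 of the 106 were at a log2 ratio of −2 or less, which is 20.8% of the collagens compared and 1.96% of all 8731 genes. These 22 were picked by this ratio, which therefore describes them and supports nothing. The last one inside was col-48, with 130 counts in the susi-2 IP against 647 in the control, and the first outside col-14, with 147 against 715.

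The 22 genes together had 125 CPM of sense fragments in the susi-2 IP, 1821 CPM in the susi-3 IP and 2308 CPM in the control IP. They made up 3.46%, 41.6% and 41.6% of all collagen sense counts in these libraries. The other members had 1.08 times (1.06 to 1.10) the control share in the susi-2 IP. Taking out the lowest ratios raises this value by construction, so it cannot show that the drop was confined to the 22. The rest still held members at least 2-fold lower, such as col-14. In the susi-3 IP the 22 were at 0.789 (0.774 to 0.805) of the control, with 16 of them within 2-fold of it and 6 at least 2-fold lower. In total small RNA, whose counts did not choose them, the 22 did not move together. The 7 at a log2 ratio of −4 or less in the susi-2 IP, a limit set after their values were seen, had 63 total counts in susi-2, 256 in susi-3 and 209 in the control. Their total ratios were 0.303 (0.225 to 0.403) in susi-2 and 1.31 (1.09 to 1.58) in susi-3. The other 15 had 450, 381 and 214 total counts in the same order, at 2.11 (1.79 to 2.50) in susi-2 and 1.90 (1.60 to 2.26) in susi-3. The sum over all 22, 513 counts in susi-2 against 423 in the control, hides this split. Only 5 of the 22 had enough total counts in susi-2 and the control for a ratio of their own.

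col-71 had the most sense counts of all members, with 192 in the susi-2 IP, 7444 in the susi-3 IP and 9651 in the control IP, and 14, 62 and 52 in the matching total libraries. Its susi-2 IP ratio was 0.0235 (0.0202 to 0.0271). The susi-2 library was far below the other 2 IPs, which lay close together at 0.873 (0.847 to 0.899). col-140 had 104, 2608 and 4442 sense counts in the susi-2, susi-3 and control IPs but 8, 7 and 4 in the total libraries, too few in total small RNA for a ratio. col-38 had 32, 1660 and 1996 counts in the IPs and 13, 90 and 66 in total small RNA, with the susi-2 library the low one in both kinds. col-49 had 8, 757 and 845 in the IPs, and the lowest ratio of all, 0.0112 (0.00480 to 0.0221). col-63, col-138 and col-175 had the same order, with 12, 462 and 668, then 24, 749 and 923, then 18, 354 and 571 counts in the susi-2, susi-3 and control IPs. Their total counts were 12, 26 and 24 for col-63, 5, 44 and 23 for col-138, and 1, 18 and 28 for col-175, with susi-2 the lowest library each time.

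col-60 belonged to this set as well, with 10 sense counts in the susi-2 IP, 132 in the susi-3 IP and 200 in the control IP, and at most 2 in any total library. col-19, the adult-stage collagen, had 17, 90 and 221 in the susi-2, susi-3 and control IPs and 2, 4 and 0 in total small RNA. Both mutant IPs were below the control for col-19, at 0.0907 (0.0519 to 0.149) in susi-2 and 0.461 (0.356 to 0.591) in susi-3. col-7, also of the adult, had 14, 13 and 34 counts in the IPs and at most 8 in total small RNA, too few for a ratio. The dauer collagen col-2 had 24, 28 and 39 sense counts in the IPs and 10, 5 and 3 in the total libraries. Its IP ratios, 0.726 (0.417 to 1.24) and 0.812 (0.481 to 1.35) in susi-2 and susi-3, were within counting error of 1. col-17 had 869, 885 and 1254 counts in the IPs and 1086, 498 and 279 in total small RNA.

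**Figure D3:**
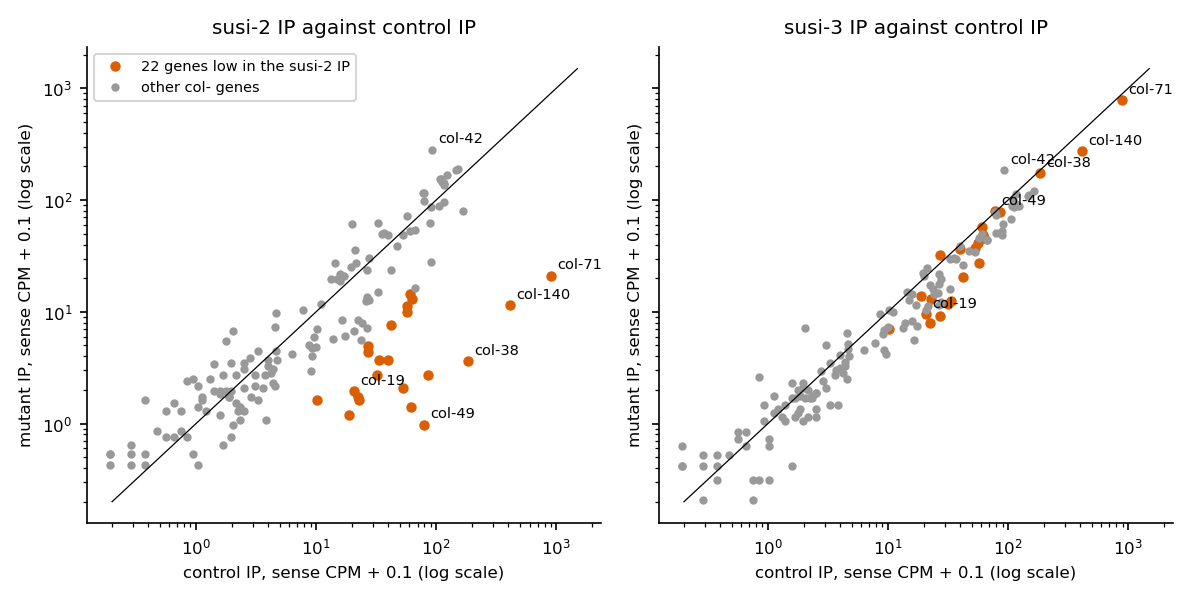
Sense CPM plus 0.1 of each col- gene in the susi-2 IP (left) and the susi-3 IP (right) on the vertical axis against the control IP on the horizontal axis, both on a log scale, with the line of equal values. The 22 genes at a log2 ratio of −2 or less in the susi-2 IP lie far below the line at left and nearer to it at right, where their sum was 0.789 of the control.

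In the opposite direction, col-42 was higher in sense counts in both mutants and in both kinds of library. It had 2574, 1760 and 996 sense counts in the susi-2, susi-3 and control IPs and 284, 542 and 102 in the total libraries. The ratios were 3.05 (2.83 to 3.28) in the susi-2 IP and 2.00 (1.85 to 2.16) in the susi-3 IP, and 2.80 (2.22 to 3.54) and 5.68 in the total libraries. No mutant sense value lay below its control. Antisense counts of col-42 were few, with 5 in the susi-3 IP against 19 in the control IP. They were 1.14% of the collagen antisense counts in the susi-2 IP and 1.13% in the control IP. col-42 led the susi-2 IP with 7.80% of all collagen sense counts, against 1.67% in the control IP. The others among the 3 highest in the susi-2 IP were col-172, with 61 counts against 21, and col-41, with 554 against 213. In the susi-3 IP col-172 had 67 counts and col-164 had 47 against 32.

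Across the 104 collagens compared between the susi-3 and control IPs, 11 were at least 2-fold lower and 1, col-172, was higher, where 9.04% and 3.22% of all genes were. The share of lower genes was thus near that of all genes, and the medians were −0.41 and −0.36. With TMM scaling 5 were lower and 2 higher, against 4.34% and 4.20% of all genes, and the sense sum was 0.982 of the control. The 3 lowest were col-124, with 87 counts against 293, col-157, with 52 against 175, and col-139, with 75 against 239. All 3 were also lower in the susi-2 IP, with 39, 76 and 15 counts for col-124, col-157 and col-139.

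The collagens with the most antisense counts were listed for each kind of library. Among total libraries 10 members reached 50 antisense counts in at least 1, and among IPs 5 members did, and col-71 alone was in both lists, which is 10% of the first and 20% of the second. Over all genes at the same minimum, 42.1% of the total list and 58.2% of the IP list were in both. col-71 had 58, 33 and 60 antisense counts in the susi-2, susi-3 and control IPs and 570, 899 and 1265 in total small RNA. It was the largest source in all 3 total libraries, with 30.9%, 38.3% and 32.2% of the collagen antisense counts of susi-2, susi-3 and the control. Its total ratios were 0.452 (0.409 to 0.500) in susi-2 and 0.759 (0.696 to 0.827) in susi-3.

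Of 13 collagens with enough antisense counts in the susi-2 and control total libraries, 7 were at least 2-fold lower and 0 higher in susi-2, where 25.0% and 3.94% of all genes were. The median log2 ratio was −1.06, against −0.60 for all genes. In susi-3, 3 of 11 were lower and 0 higher, where 18.5% and 5.48% of all genes were, with medians of −0.58 and −0.56. The bulk of antisense genes was itself lower in both mutants, since TMM put zero at −0.55 and −0.49. Relative to that zero the sums were 0.690 and 0.895 of the control in susi-2 and susi-3, and 2 collagens were at least 2-fold lower and 2 higher in susi-2, against 9.81% and 7.80% of all genes. In susi-3, 3 were lower and 0 higher, against 5.38% and 9.54%. The susi-3 sum was 0.580 without col-71.

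Single genes of this class differed in size of change. col-111 had 82, 482 and 860 antisense counts in the susi-2, susi-3 and control total libraries. Its susi-2 ratio of 0.0957 (0.0754 to 0.120) was the lowest of the collagens compared on this strand in susi-2, and susi-3 stood between susi-2 and the control at 0.599 (0.534 to 0.670). The sense counts of col-111 in the same libraries were 83, 23 and 31, so susi-2 was the highest on that strand. col-45 had 182, 324 and 522 antisense counts, col-157 had 152, 255 and 354, and col-139 had 19, 27 and 108 in susi-2, susi-3 and the control. All 3 had the control as the highest library and susi-2 as the lowest. col-154 and col-155, whose counts may share reads, had 34, 48 and 71 and 29, 51 and 72. col-85 had 37 in susi-2, 10 in susi-3 and 56 in the control, so that here susi-3 was the low one, at 0.191 (0.0868 to 0.377).

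col-60 differed from these genes. It had 401 antisense counts in the susi-2 total library, 0 in the susi-3 total library and 267 in the control total library, and 15, 3 and 4 in the IPs. The susi-2 ratio was 1.51 (1.29 to 1.77). For susi-3 the count of 0, taken at a floor of 3 counts, put it at least 83.3-fold lower than the control. No other member with 100 or more antisense counts in the control total library was at 0 in a mutant. col-103, with 43, 29 and 18 counts, and col-161, with 31, 15 and 19, were the others among the 3 highest in susi-2, and neither reached 2-fold on the scale with 1 CPM added. col-38 had 14, 36 and 42 antisense counts in the susi-2, susi-3 and control total libraries, with a susi-3 ratio of 0.916 (0.570 to 1.46).

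In the IPs, col-19 had 380, 98 and 302 antisense counts in susi-2, susi-3 and the control, against 0 in all 3 total libraries. Its ratios were 1.48 (1.27 to 1.73) in susi-2 and 0.367 (0.289 to 0.463) in susi-3. col-84 had 16 antisense counts in the susi-2 IP, 4 in the susi-3 IP and 364 in the control IP, and at most 1 in total small RNA. It alone made up 21.6% of the collagen antisense counts of the control IP. Its ratios of 0.0518 (0.0293 to 0.0853) in susi-2 and 0.0124 (0.00337 to 0.0321) in susi-3 were the lowest antisense ratios in the IPs. col-107 had 80, 26 and 49 counts, col-110 had 29, 19 and 55, and col-99, a membrane-anchored collagen of neurons and other tissues, had 44, 29 and 33. In the susi-2 IP the highest ratios were on col-90, with 43 counts against 13, col-127, with 43 against 17, and col-166, with 36 against 16.

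**Figure D4:**
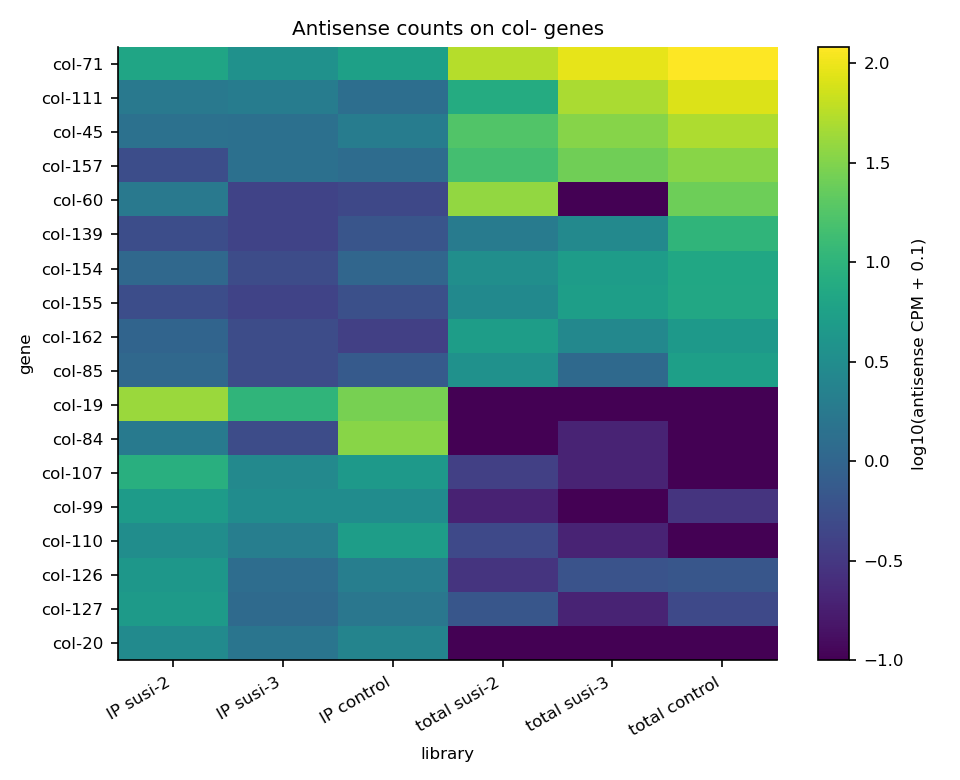
Antisense CPM plus 0.1 on a log10 colour scale in the 6 libraries, for the 10 col- genes with at least 50 antisense counts in a total library and the 8 with the most IP counts among the rest. By this choice the upper 10 are brighter in total small RNA and the lower 8 in the IPs, while col-60 is at 0 in the susi-3 total library.

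Of 12 collagens compared for antisense counts between the susi-2 and control IPs, 2 were at least 2-fold higher and 1 lower, where 45.8% and 5.34% of all genes were. TMM put zero at 1.05 in this comparison, and relative to it 0 were higher and 2 lower, against 16.8% and 17.2% of all genes. Of 6 compared in the susi-3 IP, 3 were lower and 0 higher, where 23.0% and 11.8% of all genes were. With TMM scaling 2 of the 6 were lower and 0 higher, against 19.6% and 12.5% of all genes. The numbers are too small to read a share from. Some of the named genes overlap another gene in the RefSeq annotation of WBcel235, a build that need not be that of the files. col-19 overlaps hrg-11.4, with 190 to 259 sense counts in every library. col-84 overlaps npp-3, a nuclear pore gene, with 573, 495 and 793 sense counts in the susi-2, susi-3 and control IPs and 337, 246 and 200 in total small RNA. col-71 overlaps the noncoding Y49F6B.15, col-111 overlaps psr-1, and col-107 and col-110 overlap C34H4.5 and nspg-10. col-85 overlaps the noncoding T21B4.19, with 86, 41 and 116 antisense counts in the susi-2, susi-3 and control IPs and 26, 23 and 25 in total small RNA, the noncoding T21B4.18 and a tRNA. col-99 overlaps daf-1, a tRNA and noncoding genes, of which F29C4.12 had 426, 239 and 160 antisense counts in total small RNA of susi-2, susi-3 and control. No overlap was listed for col-45, col-60, col-139, col-154, col-155, col-157 or col-162. Whether counts of overlapping genes are shared is not given.

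The IP was set against total small RNA in 1 fit over all 6 libraries, in which the 3 genotypes served as pairs, with edgeR's quasi-likelihood test and Benjamini-Hochberg adjustment over all genes. Of 138 collagens with at least 10 sense counts in at least 2 libraries, 69 were higher and 6 lower in the IP, where 26.9% and 29.8% of all 14765 genes were, and 63 did not pass. On the antisense strand 26 of 45 were higher and 10 lower, where 32.5% and 21.3% of all 10613 genes were. Many could enter only through the kind of library in which they were high. For sense counts 39 had fewer than 10 counts in every total library and 1 in every IP, and for antisense counts 26 and 6 did. Of the 98 collagens with 10 sense counts in a library of each kind, 37 were higher in the IP, 6 lower and 55 not past the threshold, where 21.4% and 25.3% of all genes so restricted were higher and lower. Of 13 such collagens on the antisense strand 1 was higher, 6 were lower and 6 did not pass, where 18.4% and 21.9% of all genes so restricted were higher and lower.

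For sense fragments the IP share was highest relative to total small RNA on col-8, col-140 and col-106. col-8 had 54, 70 and 185 counts in the susi-2, susi-3 and control IPs and 0 in all 3 total libraries, so it was at least 20.7-fold, 24.2-fold and 60.3-fold higher in the IPs with each 0 taken at 3 counts. col-140 and col-106 had under 10 sense counts in every total library and entered the fit through the IPs alone, so no p is given for them. For col-140, 104, 2608 and 4442 IP counts stood against 8, 7 and 4 total counts in susi-2, susi-3 and the control. The total counts are too few to give the difference a size. col-71, with enough counts in both kinds of library, was higher in the IP by 5.97 on the log2 scale (edgeR adjusted p = 1.81e-05). The lowest were col-186 at −2.09 (edgeR adjusted p = 0.00296), col-157 at −1.36 (0.00829) and col-55 at −1.28, which did not pass (0.0679). Over all collagens the sense share of the IP was 1.60, 1.79 and 6.15 times that of total small RNA in susi-2, susi-3 and the control. Of all protein-coding sense counts, collagens held 1.80%, 1.85% and 2.18% in the susi-2, susi-3 and control IPs. In total small RNA they held 1.34%, 1.77% and 0.812%, so the susi-3 ratio was near that of protein-coding genes in general.

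On the antisense strand, col-19 was at least 145-fold, 33.8-fold and 98.4-fold higher in the IP of susi-2, susi-3 and the control, with the 0 of its total libraries taken at 3 counts. col-84 and col-20, with 26, 14 and 25 counts in the IPs and 0 in total small RNA, were the next highest. Lowest were col-157 at −3.69 (edgeR adjusted p = 0.000753), col-60 at −3.54 (0.0369) and col-45 at −3.42 (0.000626). col-60 had that direction in 2 of 3 genotypes, as its susi-3 total library held no count. col-111 at −3.38 (0.00130) and col-71 at −3.12 (0.00173) were also lower in the IP. col-71 was thus lower in the IP on the antisense strand and higher on the sense strand.

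**Figure D5:**
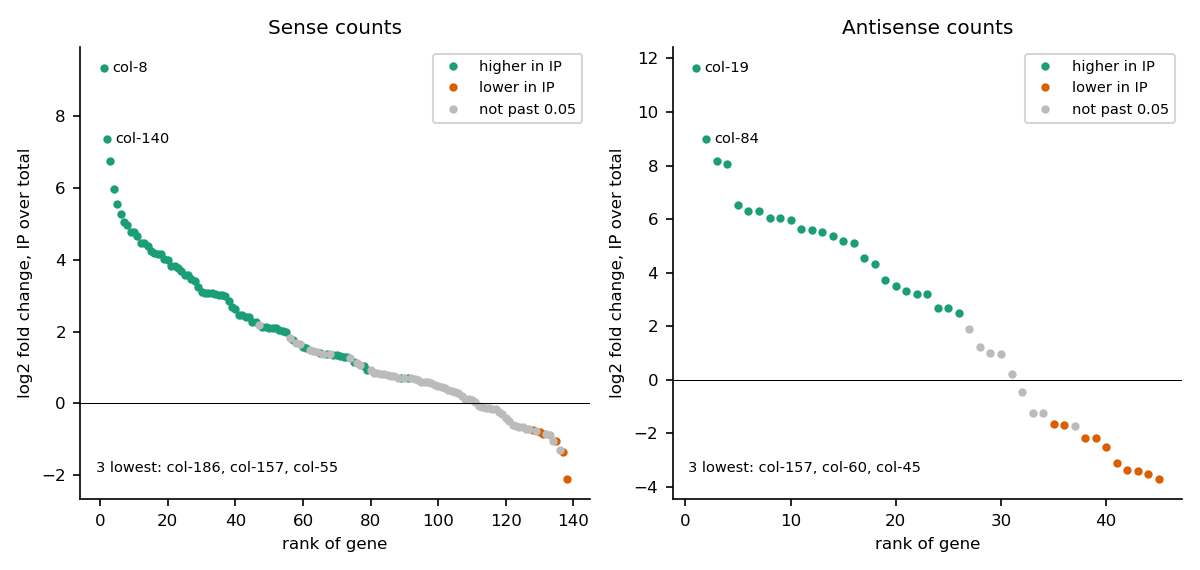
Log2 fold change of the IP over total small RNA from the edgeR fit over 6 libraries, for 138 col- genes on the sense strand (left) and 45 on the antisense strand (right), ranked. Colours mark genes higher in the IP, lower in the IP or not past an adjusted p of 0.05, and values of genes at 0 in every total library, such as col-8 and col-19, depend on the fit's prior count and are no measure of size.

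Other genes of cuticle making, basement membrane collagens, epidermal regulators and markers of other tissues were read from 10 lists. For lists other than the tissue markers, the 2 members with the most sense counts are named. The numbers of genes changed in each list are read against the shares of all genes. In sense counts, the total libraries had 15.7% of genes 2-fold or more higher in susi-2 and 10.3% in susi-3, and the IPs had 16.9% and 9.04% lower. In antisense counts, 25.0% and 18.5% were lower in the total libraries, 45.8% and 11.8% higher in the IPs, and 23.0% lower in the susi-3 IP. Lists with few genes compared cannot be told from these shares. Of 20 body-shape collagens, whose mutants are dumpy, rolling, squat or blistered, 19 were found in the files. In total small RNA 15 of 18 were at least 2-fold higher and 2 lower in the sense counts of susi-2, and 7 of 18 were higher in susi-3. In the susi-2 IP 15 of 19 were lower, and in the susi-3 IP 2 were. dpy-5 had 1350, 2151 and 2559 sense counts in the susi-2, susi-3 and control IPs and 1214, 551 and 283 in total small RNA. dpy-4 had 943, 1381 and 2458 in the IPs and 1792, 855 and 420 in total small RNA. For both, susi-2 was the lowest IP and the highest total library. Among their antisense counts, 2 of 3 compared were higher in the susi-2 IP, and none of 1 changed by 2-fold in each other comparison. sqt-3 had 170, 39 and 24 antisense counts in the IPs.

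The molting cycle list holds genes active as the old cuticle is shed. Of 11, 9 were at least 2-fold higher in sense counts of susi-2 and 5 in susi-3, and 4 were lower in the susi-2 IP and 0 in the susi-3 IP. mlt-11, a protease inhibitor gene needed for molting, had 2312, 5199 and 5314 sense counts in the susi-2, susi-3 and control IPs and 3444, 2194 and 1041 in total small RNA. fbn-1, a gene of the apical matrix, had 593, 1248 and 1231 in the IPs and 703, 1422 and 293 in total small RNA. Of their antisense counts, 4 of 6 were higher in the susi-2 IP, 1 of 3 in the susi-3 IP and 0 of 4 in each total library. Of 9 cuticlins, 3 of 3 compared were higher in both total libraries, 2 of 3 were lower in the susi-2 IP, and 0 of 5 changed in the susi-3 IP. noah-1 had 1881, 1335 and 682 sense counts in the susi-2, susi-3 and control total libraries and noah-2 had 1066, 756 and 363. No cuticlin changed 2-fold in antisense counts, with 2 and 1 compared in the susi-2 and susi-3 IPs and 0 in total small RNA.

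Of 13 enzymes that modify, trim or crosslink collagen, 5 and 3 of 10 were higher in sense counts of the susi-2 and susi-3 total libraries, and 5 and 0 of 9 were lower in the IPs. pdi-2, a protein disulfide isomerase, had 2723, 2498 and 2017 total sense counts in susi-2, susi-3 and the control, and pdi-1 had 630, 564 and 523. dpy-31, a protease of collagen processing, had 485, 1049 and 1852 antisense counts in the susi-2, susi-3 and control total libraries and 27, 20 and 33 in the IPs. It was the 1 enzyme of 3 compared that was 2-fold lower in antisense counts in susi-2, with 0 of 3 in susi-3. In the IPs 4 of 5 were higher in susi-2 and 1 of 4 in susi-3. Of 4 basement membrane collagens, which lie on the inner side of tissues and are not in the cuticle, 0 and 3 of 3 were higher in total sense counts of susi-2 and susi-3, 1 of 3 was lower in the susi-2 IP and 0 in the susi-3 IP. let-2 had 1000, 1153 and 603 total sense counts in susi-2, susi-3 and the control, and emb-9 had 665, 760 and 357. On the antisense strand 1 of 3 was lower in the susi-3 IP and 0 changed in the susi-2 IP.

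Of 8 regulators of the epidermis, 1 of 4 was higher in sense counts of the susi-2 total library and 0 of 3 in susi-3, and 0 of 6 and 1 of 5 were lower in the susi-2 and susi-3 IPs. On the antisense strand, 3 of 5 were higher in the susi-2 IP and 0 of 4 changed in the susi-3 IP. lin-29, which drives the larval-to-adult switch of the epidermis, had 586, 341 and 982 sense counts in the susi-2, susi-3 and control IPs and 45, 38 and 27 in total small RNA. blmp-1 had 158, 116 and 90 in total small RNA.

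Markers of other tissues were counted in the same way. In total small RNA 1 of 14 muscle genes was at least 2-fold higher in sense counts of susi-2 and 8 in susi-3, 1 of 9 intestinal genes in susi-2 and 0 in susi-3, 3 and 4 of 9 neuronal genes, and 0 of 5 germline genes in either. Of these, the 8 muscle genes in susi-3 and the neuronal genes stood above the shares of all genes, 15.7% in susi-2 and 10.3% in susi-3. With 9 neuronal genes compared, their counts cannot be told from these shares. In the susi-2 IP 10 of 11 germline genes were lower, where 16.9% of all genes were, 2 of 7 intestinal genes, 0 of 10 neuronal and 0 of 14 muscle genes. In the susi-3 IP 4 of 11 germline genes and 1 of 10 neuronal genes were lower and none of 7 intestinal genes. A muscle gene and a neuronal gene were higher in each mutant IP. Summed muscle sense levels were 4112, 5825 and 4934 CPM in the susi-2, susi-3 and control IPs and 1612, 1958 and 996 CPM in total small RNA. Intestinal genes summed to 1190, 1900.1 and 1612 CPM in the IPs and 1914, 1326 and 1356 CPM in total small RNA, and neuronal genes to 142, 154 and 162 CPM and 149.6, 159 and 81.0 CPM. The summed germline sense level was 149.5, 239.7 and 446.4 CPM in the susi-2, susi-3 and control IPs and 73.0, 76.1 and 64.1 CPM in total small RNA. Apart from 1 germline gene in the control total library, no measured marker of these 4 lists was at 0 in sense counts. The part of a change in tissue make-up or stage in the collagen counts was not tested. On the antisense strand 8 of 10 germline genes, 4 of 10 muscle genes, 0 of 3 intestinal genes and 1 of 2 neuronal genes were higher in the susi-2 IP, and 1 muscle gene was lower. In the susi-3 IP 1 of 6 germline, 1 of 8 muscle and 1 of 2 neuronal genes were lower. Of the total antisense counts, 1 of 11 germline genes and 2 of 3 neuronal genes were lower in susi-2, 1 of 3 neuronal genes was lower in susi-3, and the 1 muscle gene compared was higher in both.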

How the data were processed

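The deposited files hold raw counts per transcript feature, sense and antisense, per the file headers. The authors used Bowtie2, per the submitters' processing notes. Settings, treatment of reads with several matches, genome build and read lengths are not stated in what was used here, so siRNAs could not be separated from other antisense fragments by size. The 56377 features were summed to 45510 genes. The 5 blank cells counted as 0, and 3 rows without a gene name (at most 122 counts a library) were left out. Symbols came from a reference table of gene names through the WormBase identifiers (156 of 156 members), since no symbol stands in the protein-coding rows. Of the members, 131 have 1 feature.

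A share has an exact 95% Clopper-Pearson interval and a ratio of shares the exact conditional interval of its 2 counts. CPM are counts per 1000000 counts of the library, both strands. Log2 ratios used 1 CPM added and at least 50 counts over the 2 libraries. The IP and total libraries were compared with edgeR 4.0.16 (R 4.3.3, limma 3.58.1), TMM scaling, genotype as a block and at least 10 counts in 2 of 6 libraries, at an adjusted p of 0.05. The 3 genotypes stand in for replicates, so the p measures how the IP-to-total difference varies between genotypes. DESeq2 1.42.0 was an alternative. The fit was tested on simulated data. A count of 0 was taken at 3 counts in a bound.

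Genes named are col-60 and col-42, the 5 most abundant on each strand and the 3 highest and 3 lowest of each comparison. Members of a known stage and the 2 most abundant of each list other than the tissue markers are named too. The others, among them the genes low in the susi-2 IP, were picked after their values were seen. The symbols col-6, ram-4 and opt-2 were not matched. Members and lists were chosen with earlier results of these data known.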

Additional observations from a re-analysis of the deposited data

Results flagged for a closer look

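With 1 library per group, opposite directions of 2 comparisons were not tested. For susi-2 the antisense sum over the collagens was 1.48 times the control in the IP and 0.471 times in total small RNA. Other protein-coding genes had the same opposite directions, at 1.74 and 0.505, so the contrast was not confined to the collagens. In the IPs the same sum was 1.48 times the control in susi-2 and 0.573 times in susi-3. Other protein-coding genes were at 1.74 and 0.970 there. Both collagen values depend on col-84, which held 21.6% of the collagen antisense counts of the control IP. The susi-2 IP value was 0.713 under TMM scaling, which removes both contrasts of direction. The sense sum went the other way in the 2 kinds of library, at 0.652 in the IP and 2.51 in total small RNA of susi-2. It was 0.790 in the IP and 2.72 in total small RNA of susi-3. Both susi-3 directions held under TMM, although the IP value was then 0.982. Antisense counts on col-60 in total small RNA were 1.51 times the control in susi-2 and 0 in susi-3.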

How the results depend on the processing

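No paired analysis was possible between mutant and control because each group has 1 library and the labels carry no replicate numbers. For IP against total small RNA, which pairs libraries by genotype, leaving the genotype block out gave 27 higher and 10 lower antisense genes, and 69 and 5 sense genes. DESeq2 gave 26 and 8, and 64 and 4. Without a filter 71 antisense genes were higher. With library totals only, 1 sense gene was lower. Leaving out 1 genotype at a time gave 13 to 21 higher and 7 to 9 lower antisense genes (13 without susi-2), and 52 to 77 higher and 1 to 8 lower sense genes (1 without susi-3). Numbers tested and shares of all genes called under these settings are not given here, so the counts show nothing particular to the collagens. A comparison of mutants depended most on scaling. TMM gave sense ratios of 1.88 and 2.34 in total small RNA and 0.810 and 0.982 in the IPs of susi-2 and susi-3. It gave antisense ratios of 0.690 and 0.895 in total small RNA and 0.713 in the susi-2 IP, with a median log2 ratio of −0.20 in place of 0.68. Sense genes higher under TMM numbered 23 in susi-2 total small RNA, 8 in the susi-2 IP and 2 in the susi-3 IP, where 5 were lower. For antisense, 2 were higher and 2 lower in susi-2 total small RNA, and 0 and 2 in the susi-2 IP. With counts outside rRNA genes as the total, sense ratios were 2.68 in susi-2 total small RNA and 0.768 and 0.937 in the IPs of susi-2 and susi-3, with 7 and 2 genes higher (6.92% and 4.36% of all genes) and 6 lower in susi-3 (6.90%). Antisense ratios were then 0.503 in susi-2 total small RNA (1 gene higher, 4.81% of all), 1.74 in the susi-2 IP (6 higher, 59.7% of all) and 0.680 in the susi-3 IP. A pseudocount of 0.1 CPM made 1 antisense gene higher in susi-2 total small RNA (5.05% of all genes) and 5 in the susi-2 IP (53.9%). A minimum of 20 counts gave 8 higher there (38.0%), 4 lower sense genes in susi-2 total small RNA (8.91%) and 2 higher in the susi-3 IP (3.19%). Without the member of most counts, the sense ratio was 2.64 in susi-3 total small RNA (without col-3) and 0.774 in the susi-2 IP and 0.774 in the susi-3 IP (both without col-71), and the antisense ratio 0.580 in susi-3 total small RNA (without col-71). Without the 22 low genes, a choice made after seeing the data, the susi-2 IP sense ratio was 1.08. The cause of each change of count or ratio was not tested. Among named genes 516 values kept their direction and side of 2-fold or 0.05, 14 passed it, 13 lost it and 0 reversed. At 0.0930 to 0.110 CPM a count, genes of few counts cannot show small changes.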
